A study of Mus musculus with 6 samples.

Results

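ATAC-seq peaks at the genes of the C/EBP (CCAAT/enhancer binding protein) family were compared between WT and DKO white preadipocytes. The members were Cebpa, Cebpb, Cebpd, Cebpe, Cebpg and Cebpz, and a listed summit belonged to a locus when it lay in the gene or within 50 kb of it (mm10, GENCODE M21). In the 6 libraries together, 968 of 1797083 listed summits met this rule, with 155 to 163 per WT library and 157 to 170 per DKO library. At the loci lay 92 of the 179248 windows (250 bp on each side of a summit) that were tested across the genome. A window that overlapped a better one was dropped, so some listed summits, among them one of Cebpd at −580 to −568 bp, lay in no tested window. The Cebpa locus held 21 windows, Cebpb 25, Cebpd 11, Cebpe 14, Cebpg 21 and Cebpz 8, and the neighbouring Cebpa and Cebpg loci shared 8 of them.

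The cells were primary preadipocytes from the inguinal white fat of adult C57BL/6 mice, plated on collagen and taken at day 0, before any differentiation medium was added. WT cells carried both nucleosome-binding proteins HMGN1 and HMGN2, whereas DKO cells came from Hmgn1-/-Hmgn2-/- mice that lack both throughout the body. Each genotype had 3 libraries, and nothing in the labels says whether these came from separate animals, so a p-value here measures the spread between libraries only. The question was whether the loss of HMGN altered accessibility at the early adipogenic members (Cebpb and Cebpd) and at the late member (Cebpa).

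C/EBP proteins are transcription factors with a basic leucine zipper that bind DNA as dimers. In preadipocytes that receive the hormonal cocktail, Cebpb and Cebpd are induced first, by cAMP and glucocorticoid signals, and their products then activate Cebpa and Pparg, which sustain the adipocyte program. Cebpg encodes a small member that acts largely through heterodimers with other factors such as ATF4, and Cebpe is known for its role in granulocyte maturation. Cebpz encodes a CCAAT-binding protein that is unrelated in structure, and it carries the family name only.

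The measure was fold enrichment, the ratio of the pileup (the signal counted by the peak caller) at a summit to the local background. The peak caller estimated this background in the same library, and 1 is added to both terms of the ratio. Read totals were not analysed here, and the most frequent background value of a library (the modal background) served as its depth. It was 2.41 to 2.51 in WT and 2.05 to 2.58 in DKO, with the lowest value in DKO replicate 3. As a check of the labels, the window at the Hmgn2 start site was listed in 3 WT but 0 DKO libraries (limma adjusted p = 0.0312), as was a second Hmgn2 window 224 bp from a start site (limma adjusted p = 0.0659). Of the 2 Hmgn1 promoter windows, the one 366 bp from a start site was listed in all 6 libraries and the one 731 bp away in 3 WT and 2 DKO libraries. Of 12 progenitor marker genes, 11 had a promoter window, against 1 of 6 mature adipocyte genes (Retn), while Adipoq, Plin1, Cidec, Lep and Ucp1 had none. Promoter windows were also present at 5 of 6 leukocyte genes (all but Ptprc) and at 4 of 4 endothelial genes. Summed fold enrichment over the leukocyte genes was 18.9 to 24.8 in WT and 21.3 to 29.4 in DKO, and over the endothelial genes 23.8 to 30.4 and 20.7 to 30.3. Itgam (a leukocyte gene) and Cdh5 (an endothelial gene) were listed in 3 DKO and 0 WT libraries, whereas Lyz2 and Pecam1 were lower in every DKO library after normalization. The part of these cells in the values below was not tested, and a change in the share of cells cannot be told apart from a change within each cell.

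The promoter sequences of the members are shown first, as the values that follow refer to them. RefSeq promoter entries (GRCm38.p6) were matched for 3 of the 6 members, and the 250 bases upstream of the RefSeq start are printed 5′ to 3′ on the strand of the gene, with motif letters in capitals. The entries of Cebpd, Cebpe and Cebpz were not matched. Cebpa lies on chromosome 7 (plus strand), Cebpb on chromosome 2 (plus strand) and Cebpg on chromosome 7 (minus strand).
Cebpa promoter, chr7:35119043-35119292: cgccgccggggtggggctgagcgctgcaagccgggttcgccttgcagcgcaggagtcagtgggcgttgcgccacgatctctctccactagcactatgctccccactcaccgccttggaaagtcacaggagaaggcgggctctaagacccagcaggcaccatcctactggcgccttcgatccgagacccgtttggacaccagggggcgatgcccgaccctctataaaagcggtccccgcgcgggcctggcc
Cebpb promoter, chr2:167688665-167688914: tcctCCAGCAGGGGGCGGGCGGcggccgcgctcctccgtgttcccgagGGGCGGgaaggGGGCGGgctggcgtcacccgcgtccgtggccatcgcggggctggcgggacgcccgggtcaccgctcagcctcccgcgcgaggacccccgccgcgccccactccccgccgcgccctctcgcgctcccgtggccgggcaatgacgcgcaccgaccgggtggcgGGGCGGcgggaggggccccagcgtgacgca
Cebpg promoter, chr7:35056567-35056816: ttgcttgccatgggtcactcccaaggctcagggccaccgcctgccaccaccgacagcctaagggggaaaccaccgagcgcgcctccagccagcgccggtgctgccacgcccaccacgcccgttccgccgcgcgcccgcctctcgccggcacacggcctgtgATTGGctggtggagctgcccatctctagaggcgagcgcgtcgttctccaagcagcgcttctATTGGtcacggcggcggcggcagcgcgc

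The Cebpb promoter was the richest in G and C at 81.6%, against 70.8% for Cebpg and 66.4% for Cebpa. Its capitals mark 5 matches to GGGCGG (SP/KLF factors), the first of which overlaps a match to the CTCF consensus and also the next match. The capitals in the Cebpg promoter mark a pair of CCAAT boxes (NF-Y) read on the other strand. Over 32851 RefSeq promoters of 300 bases, 35.7% held GGGCGG, 37.4% held CCAAT and 2.43% held the CTCF consensus. The printed Cebpa stretch held none of the 11 motifs searched on both strands, which were TTGCNNAA (C/EBP), TGANTCA (AP-1), TGACGTCA (CRE), TTCNNNGAA (STAT), ACANNNTGT (glucocorticoid receptor), CACGTG (E-box), GGAATG (TEAD), the EBF consensus and the motifs named above. The wider tested window at the Cebpa promoter held 1 match each to GGGCGG and CACGTG. A match is a description of the letters only.

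Accessibility at the promoters of the early members was then examined. Cebpd had a strong peak and Cebpb a weak one, and neither differed between genotypes beyond the spread between libraries. At Cebpd (chr16:15887286-15891031, plus strand), the fold enrichment of the window centred at −145 bp from the start site reached 10.5, 11.9 and 13.1 in WT replicates 1 to 3. In DKO replicates 1 to 3 it was 11.9, 10.8 and 12.8. The groups overlapped fully, and the log2 change (DKO minus WT, after quantile normalization) was 0.17 ± 0.15 (SE, n = 3 each, limma adjusted p = 0.656). It was 0.09 without WT replicate 1, 0.29 without WT replicate 2, 0.27 without DKO replicate 2 and 0.07 without DKO replicate 3.

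Cebpb (chr2:167688915-167690418, plus strand) lies inside an annotated intron of Tmem189. The window nearest to its start site, centred at 184 bp, had no listed summit in any WT library and only weak ones in DKO replicate 1 (2.67) and DKO replicate 3 (2.99). No summit was listed there in DKO replicate 2, so the genotypes overlapped (log2 change 0.62 ± 0.43, SE, limma adjusted p = 0.549). The change was 0.38 without DKO replicate 3, 0.94 without DKO replicate 2 and 1.53 with pileup as the measure. The strongest promoter window of Cebpb was centred at −640 bp, in sequence that holds both an AP-1 motif and a glucocorticoid receptor motif. Its fold enrichment was 4.45, 4.82 and 5.38 in WT and 3.23, 6.54 and 2.94 in DKO. The DKO libraries lay on both sides of all WT libraries, with a change of −0.16 ± 0.32 (SE, limma adjusted p = 0.891). Without DKO replicate 3 the change was 0.03.

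The 151 bases around the centre of this window are printed on the plus strand. The capitals mark TGACTCA, a match to the AP-1 motif, followed by ACACAGTGT, a match to the glucocorticoid receptor motif.
Cebpb upstream peak, chr2:167688200-167688350: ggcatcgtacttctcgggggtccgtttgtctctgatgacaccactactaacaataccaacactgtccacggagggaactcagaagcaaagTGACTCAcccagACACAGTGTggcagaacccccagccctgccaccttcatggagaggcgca

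The promoter of the late member Cebpa (chr7:35119293-35121928, plus strand) was at the high end in DKO. Fold enrichment of the window at −130 bp reached 10.5, 13.4 and 12.8 in WT and 13.6, 14.3 and 14.0 in DKO. Every DKO value lay above every WT value as deposited, but after normalization the groups overlapped. The log2 change was 0.37 ± 0.15 (SE), which had an unadjusted p of 0.0374 and did not pass adjustment (limma adjusted p = 0.388). The change was 0.20 without scaling and 0.55 without WT replicate 2. Ranked by p in its own list, the best Cebpa summit stood at position 15254, 3807 and 8289 in WT and at 3664, 3184 and 2866 in DKO. It thus ranked better in each DKO library than in any WT library. The best Cebpg summit did so too, at 11627, 17016 and 12290 in WT and 8243, 2942 and 11031 in DKO. The share of all summits with ranks apart in this way was not computed. A further Cebpa window at −695 bp, in the intron of the antisense gene Gm45091, had values of 8.56, 6.52 and 8.21 in WT and 8.16, 7.31 and 6.43 in DKO. These overlapped (log2 change 0.11 ± 0.16, SE, limma adjusted p = 0.818).

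By fold enrichment, the remaining members had the strongest promoters or none at all. Cebpz (chr17:78919006-78937066, minus strand) had the highest promoter window of the family, which it shares with Ndufaf7, a mitochondrial complex I assembly gene that starts 70 bp away in the other direction. Its fold enrichment was 26.3, 25.7 and 26.2 in WT and 22.8, 19.4 and 20.9 in DKO. All DKO values were lower as deposited and overlapped with WT after normalization (log2 change −0.21 ± 0.11, SE, limma adjusted p = 0.458, and −0.14 without WT replicate 2 or without DKO replicate 2). At Cebpg (chr7:35046422-35056573, minus strand), the window at −49 bp had 17.4, 13.3 and 19.4 in WT and 17.6, 21.9 and 15.9 in DKO. Here the deposited values overlapped, whereas the normalized values were higher in every DKO library (0.28 ± 0.11, SE, limma adjusted p = 0.359). This change was 0.15 without scaling and 0.18 without DKO replicate 2. Cebpe (chr14:54710360-54712174, minus strand) had no listed summit within 1 kb of its start site in any library. Its nearest window, at −2160 bp, had values between 8.47 and 10.5 that overlapped between genotypes (0.23 ± 0.18, SE, limma adjusted p = 0.618).

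**Figure D1:**
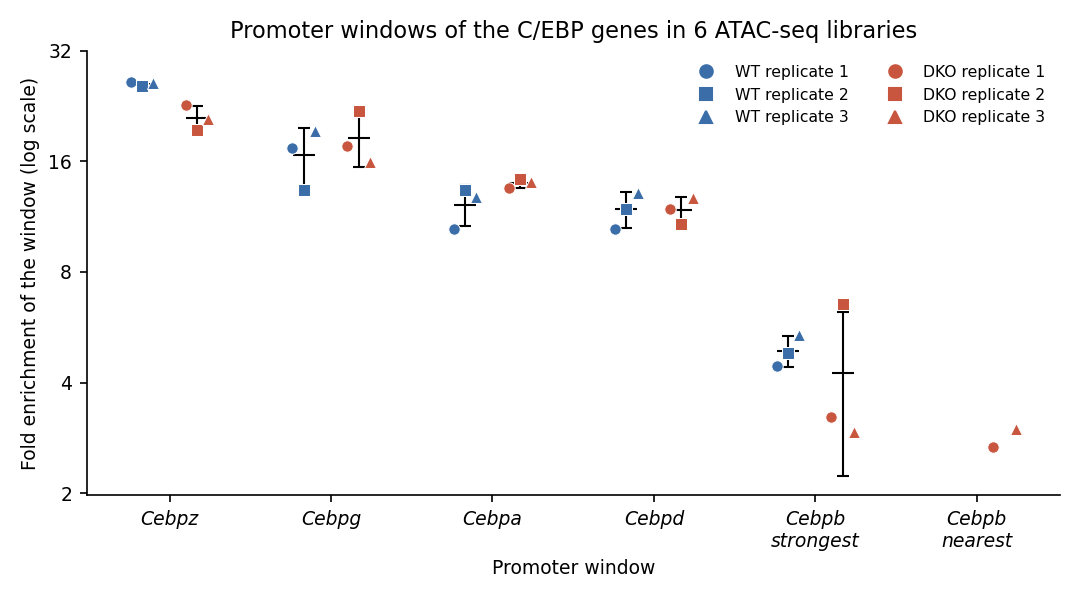
Fold enrichment (log axis) of the promoter windows of 5 C/EBP genes in 3 WT (blue) and 3 DKO (red) libraries, with symbols for the replicate number and black bars for the mean and SD of groups with 3 listed values. Cebpz is highest, the nearest Cebpb window is listed in 2 DKO libraries only, and the strongest Cebpb window spreads from 2.94 to 6.54 in DKO.

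The promoters were then ordered by their level. Among all windows of a library, the Cebpz promoter stood at a mean percentile of 99.3 by fold enrichment, Cebpg at 96.0, Cebpa at 89.7 and Cebpd at 87.3. Neighbours in this order overlapped in range, at 98.0 to 99.9 for Cebpz, 93.1 to 99.1 for Cebpg, 82.3 to 94.5 for Cebpa and 82.3 to 92.5 for Cebpd. Cebpg stood above Cebpz in DKO replicate 2, Cebpa narrowly above Cebpg in WT replicate 2, and Cebpd above Cebpa in WT replicates 1 and 3. The strongest Cebpb window had a mean percentile of 43.0 and ranged from 22.3 to 67.3. The nearest Cebpb window stood at 13.3 on average, which includes libraries at the end of the list.

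The low ratio at Cebpb came with a high denominator. At the best summit within 1 kb of the start site, the local background of Cebpb was 5.30 to 8.22 times the modal background of the library. It was higher than at Cebpa (4.21 to 6.24 times) and at Cebpd (2.88 to 3.81 times) in 6 of 6 libraries. Between 98.3% and 98.9% of all listed summits of a library had a lower local background than Cebpb. For Cebpa this share was 96.0% to 97.8%, for Cebpd 85.2% to 90.6%, and for Cebpz it was 71.2% to 75.4%.

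The pileup itself gave a smaller gap between Cebpb and the other early gene. The pileup at the Cebpb summit was 76, 68 and 111 in WT and 53, 101 and 37 in DKO. At Cebpd it was 83, 99 and 133 in WT and 111, 101 and 87 in DKO, so Cebpb was lower in 5 libraries and equal in DKO replicate 2. At Cebpa it was 128, 154 and 204 in WT and 191, 200 and 152 in DKO, above both early genes in every library. At Cebpz it was 168, 143 and 176 in WT and 146, 125 and 105 in DKO. By pileup, Cebpa thus stood above Cebpz in all libraries but WT replicate 1, and it stood above Cebpg in every library. In multiples of the modal background, the Cebpa pileup averaged 66.3 ± 16.4 in WT against 75.7 ± 2.87 in DKO, and that of Cebpb 34.9 ± 9.94 against 26.2 ± 12.0 (SD, n = 3 each). Both pairs of groups overlapped. So did the local background of Cebpb, at 6.76 ± 1.46 times the modal value in WT against 5.86 ± 0.20 times for the DKO libraries (SD, n = 3 each).

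**Figure D2:**
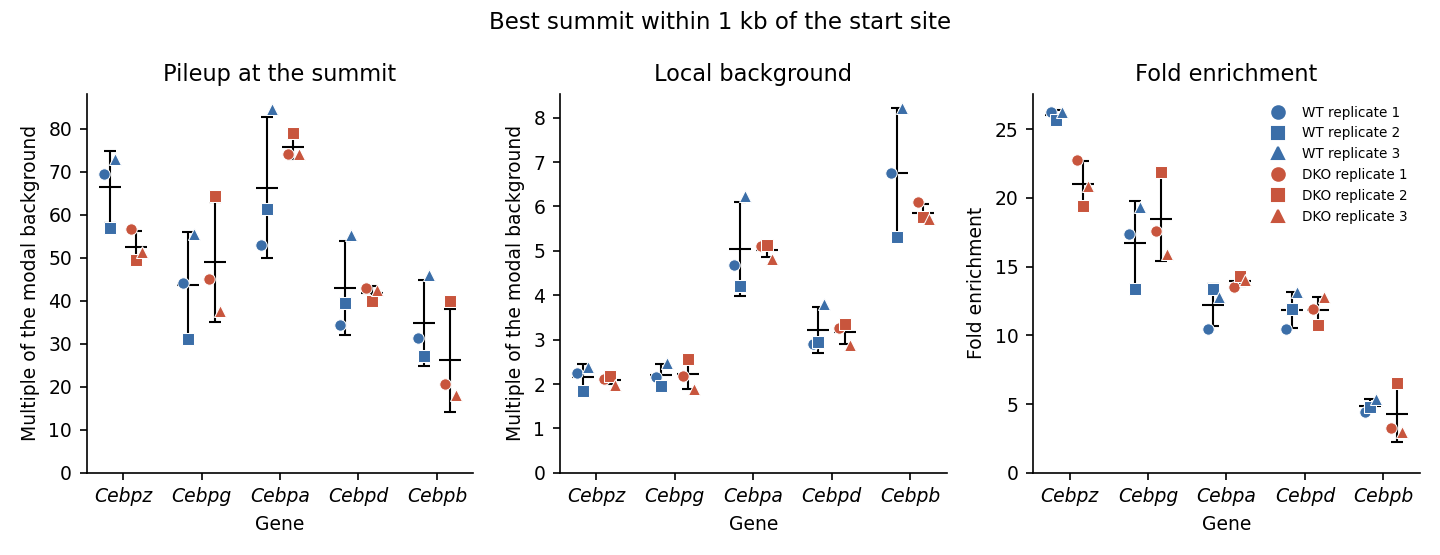
Pileup and local background at the best promoter summit, both as multiples of the modal background of the library, and their fold enrichment, for 5 genes in each library (WT blue, DKO red, black bars mean and SD, n = 3). Cebpb combines the highest local background (5.30 to 8.22) with the lowest fold enrichment (2.99 to 6.54).

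The shape of the promoter peaks was compared over 1250 bp on each side of the start site. Cebpa had 7 summit positions, and each of the 7 was listed in all 6 libraries, so that the same ladder of peaks recurred in WT and DKO. The highest lay between −132 and −114 bp (10.5 to 14.3), the next between −335 and −316 bp (7.69 to 11.5) and another between −716 and −695 bp (6.43 to 8.56). A summit on the start site itself, at 1 to 5 bp, reached 5.22 to 7.71.

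At Cebpd 3 of 8 positions were listed in all 6 libraries, all of them upstream. These lay at −580 to −568, −371 to −360 and −161 to −100 bp, the last being the promoter peak. The remaining 5 were listed in 1 or 2 libraries, and 3 of these were downstream of the start. At Cebpb 2 of 7 positions recurred in all 6 libraries, at −1189 to −1161 bp (3.23 to 4.74) and at −653 to −617 bp (2.94 to 6.54). The 2 positions past its start site, at 97 and 164 to 184 bp, were listed in DKO libraries only, with a fold enrichment of at most 2.99. The window at 184 bp is the one tested above (limma adjusted p = 0.549).

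**Figure D3:**
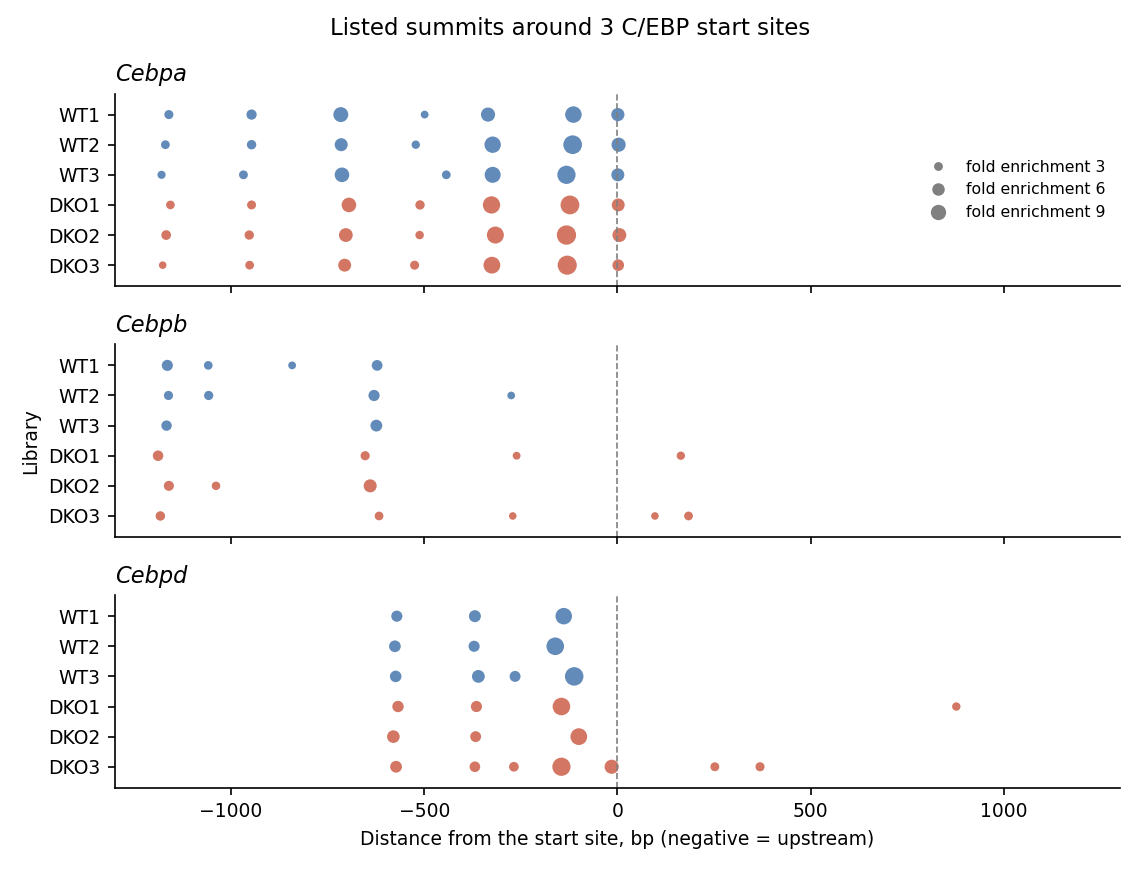
Listed summits by distance from the start site (bp, negative upstream) at Cebpa, Cebpb and Cebpd, 1 row per library, with the point area proportional to fold enrichment (WT blue, DKO red). Cebpa shows 7 positions that recur in all 6 libraries, Cebpd 3 and Cebpb 2.

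The early and late members were contrasted within each library, as the mean of Cebpb and Cebpd minus Cebpa on the log2 scale. This is a score over chosen members and carries no test. With the window nearest to each start site, it was −1.34, −1.72 and −1.35 in WT and −1.31, −1.82 and −1.18 in DKO. The means of −1.47 ± 0.22 and −1.44 ± 0.34 (SD, n = 3 each) differed by 0.03. The nearest Cebpb window was listed in 2 DKO libraries only, and its value in the other 4 libraries was the lowest of the list, so that this form of the contrast follows the end of each list as well as the promoters.

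The choice of the Cebpb window moved the contrast. With the strongest promoter window the mean was −0.67 ± 0.14 for WT libraries and −1.03 ± 0.24 for DKO libraries (SD, n = 3 each), and the values of −0.59 to −0.84 in WT and −0.76 to −1.21 in DKO overlapped in 1 DKO library, replicate 2. With the pileup of the best summit in place of the ratio, the contrast was −0.69 to −0.91 in WT and −0.99 to −1.42 in DKO, a difference of −0.46 in which the groups did not overlap. For DKO replicate 3 the best Cebpb summit was the one at 184 bp rather than the upstream peak used in the other 5 libraries. Over all windows of the loci, the mean contrast stood at −0.24 ± 0.10 for WT against −0.39 ± 0.09 for DKO libraries (SD, n = 3 each). The groups lay apart there by a small margin, as WT replicate 2 (−0.32) and DKO replicate 1 (−0.32) nearly coincided. The local background at the best summits gave a difference of −0.11, again with separate groups. The mean was thus lower in DKO in 5 of 6 measures, which share libraries and summits and are not independent of each other. The direction depended on the window, as the nearest windows gave a difference of 0.03 with fold enrichment and 0.49 with pileup.

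**Figure D4:**
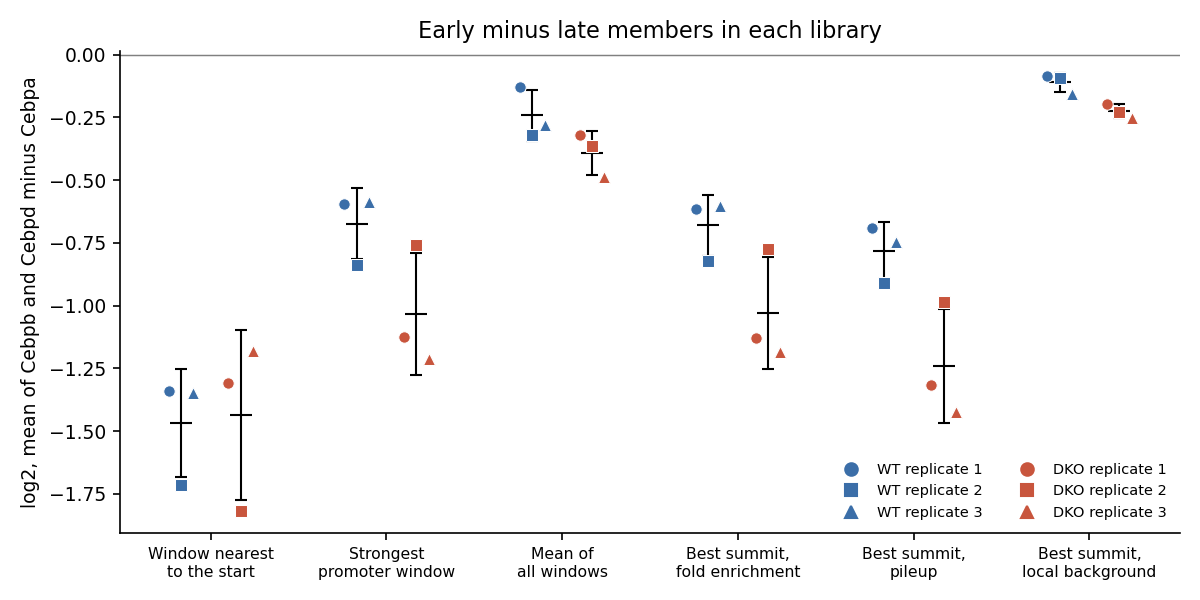
The log2 difference between the mean of Cebpb and Cebpd and Cebpa in each library, by 6 measures (WT blue, DKO red, black bars mean and SD, n = 3). WT and DKO overlap for the nearest window, the strongest window and the fold enrichment of the best summit, and lie apart for the other 3 measures.

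All windows of the loci were tested next in the fit over the whole genome. Of the 92 windows, 0 fell and 0 rose in DKO at the threshold of 0.05 on the limma adjusted p, where 0.0357% and 0.0234% of all windows were called lower and higher. These genome shares, 64 and 42 windows, were unstable. Without the trend 2089 windows were called lower and 2047 higher. When 1 library was left out, 0 or 1 were called lower and 0 to 6 higher. At an unadjusted p under 0.05 there were 8 windows, or 8.70%, against 11.8% of all windows. The lowest limma adjusted p was 0.184. Restricting the fit to windows listed in all 6 libraries, which called 0.59% of windows lower and 0.285% higher, also gave 0 calls among the 59 windows of the loci. WT and DKO values did not overlap in 8 windows that were lower and 9 that were higher in DKO, or 8.70% and 9.78%, against 7.67% and 8.76% of all windows. These shares were close to the background of the genome.

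The loci were then described by the median of their windows. The median log2 change was 0.09 at Cebpb, 0.13 at Cebpa, 0.12 at Cebpg and 0.17 at Cebpe, and it was negative at Cebpz (−0.24) and at Cebpd (−0.14, but 0.11 over its windows listed in all 6 libraries). These medians rested on few windows and on single libraries. At Cebpd the value was 0.03 without WT replicate 1, 0.0015 without DKO replicate 1, −0.30 without WT replicate 2 and −0.34 without DKO replicate 2, and it was −0.57 within 10 kb of the gene. At Cebpz it was −0.12 without WT replicate 1, −0.12 without WT replicate 2, −0.08 without DKO replicate 2, −0.12 without DKO replicate 3 and −0.0078 when missing values were left out. At Cebpb it was 0.19 without WT replicate 1 and 0.04 without WT replicate 2. At Cebpa it was 0.07 without WT replicate 2, and at Cebpe 0.08 over windows listed in all 6 libraries and 0.01 without scaling. At Cebpg it was 0.05 without WT replicate 2 and 0.02 without WT replicate 3. Without scaling between libraries, where the median of all windows was −0.14, the medians at Cebpa, Cebpb and Cebpg were −0.07, −0.09 and −0.07. With scaling, the median was 0.08 over the 92 windows and 0.01 over all windows. At Cebpb 18 of 25 windows had a positive change, at Cebpa 13 of 21, at Cebpd 5 of 11 and at Cebpz 2 of 8, where 51.4% of all windows did. Over the 92 windows, 54 had a positive change with scaling and 34 without it. No single window passed the test. The density of listed summits varied between the loci. WT and DKO had 38.1 ± 3.17 and 38.4 ± 2.61 summits per 100 kb at Cebpb, 36.4 ± 2.45 and 39.3 ± 2.45 at Cebpa, and 17.7 ± 0.56 and 19.3 ± 1.67 at Cebpd (SD, n = 3 each). The densities of Cebpg and Cebpe lay between those of Cebpa and Cebpd. The genome as a whole had 11.4 in each genotype, a number that the length of the lists fixed. Cebpz came closest to it, with means of 14.7 for the WT libraries (SD 2.13) and 15.0 for the DKO libraries (SD 1.76). The genome value includes regions far from genes, and other gene loci were not compared. A high density is thus not shown to be particular to these loci.

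**Figure D5:**
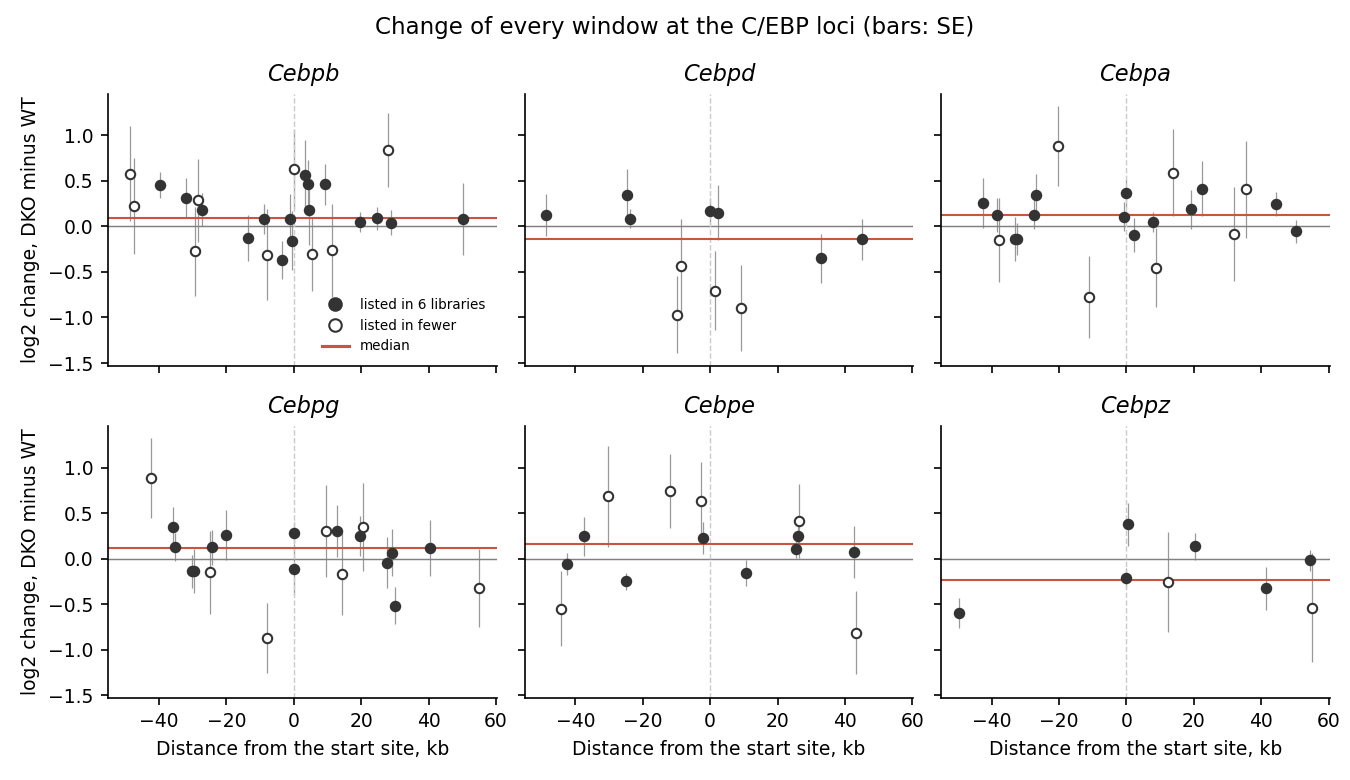
The log2 change (DKO minus WT, limma estimate with SE bars) of every window at the 6 loci against its distance from the start site of the gene in kb. Filled points were listed in 6 libraries and open points in fewer, and the red line is the median of the locus, from −0.24 at Cebpz to 0.17 at Cebpe (0.01 at Cebpe without scaling).

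Distal windows of the early loci were inspected in more detail. At Cebpb the groups were apart in 1 of 25 windows that was lower in DKO (4%) and in 4 that were higher (16%), against 7.67% and 8.76% of all windows. The second lowest p of the whole set belonged to a window at −39566 bp (chr2:167649099-167649599), in introns of Tmem189 and Gm20431, with values of 8.13, 9.25 and 10.4 in WT and 10.2, 12.1 and 11.3 in DKO. After normalization all DKO libraries lay above all WT libraries (log2 change 0.46 ± 0.14, SE, unadjusted p = 0.00902, limma adjusted p = 0.219). The change was 0.28 without scaling and 0.71 with pileup as the measure.

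Downstream of Cebpb, 3 windows in introns of the long noncoding RNA gene A530013C23Rik were also apart and higher in DKO after normalization. The window at 4063 bp had values of 3.14, 4.08 and 5.00 in WT and 4.95, 4.85 and 4.90 in DKO (0.47 ± 0.26, SE, limma adjusted p = 0.46), and its change was 0.29 without scaling, 0.22 with pileup as the measure and 0.28 without WT replicate 1. The windows at 3232 and 9130 bp had changes of 0.56 and 0.46, which were 0.20 and 0.30 without scaling and 0.16 and 0.19 with pileup as the measure. In the opposite direction, the window at −3540 bp had 6.20, 6.85 and 7.02 in WT and 4.85, 5.15 and 3.87 in DKO (−0.37 ± 0.21, SE, limma adjusted p = 0.465, and −0.24 without WT replicate 2). The strongest distal window of Cebpb, at 19709 bp in A530013C23Rik, was the same within the spread, with 13.1, 10.7 and 16.1 in WT and 11.6, 12.7 and 12.1 in DKO (0.05 ± 0.11, SE, limma adjusted p = 0.898).

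The 151 bases around the centre of the window at −39566 bp are printed on the plus strand, since it had the lowest p at an early locus. The capitals mark TGACTCA, an AP-1 match.
Cebpb distal peak, chr2:167649274-167649424: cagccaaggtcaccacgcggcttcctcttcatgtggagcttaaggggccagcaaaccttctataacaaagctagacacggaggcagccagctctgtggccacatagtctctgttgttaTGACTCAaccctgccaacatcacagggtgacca

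At Cebpd the groups were apart in 3 of 11 windows that were lower in DKO (27.3%, against 7.67% of all windows) and in 0 that were higher (8.76% of all). These are few windows, and no test was made of the shares. A window over the annotated UTR of the gene at 1396 bp (chr16:15888432-15888932) had summits in 3 WT libraries (2.89, 3.71 and 2.59) and in 0 DKO libraries. Across the genome 1.23% of windows were listed in 3 WT and 0 DKO libraries, and 2 of 92 windows of the loci were. Its pileups were 23, 31 and 26, and by p the WT replicate 3 summit stood at position 299278 of 299620, at the end of that list. All DKO values were set to the lowest of their lists, and the window did not pass the test (−0.71 ± 0.44, SE, limma adjusted p = 0.492), with a change of −0.36 without WT replicate 2. The window at 33018 bp, in an intron of the DNA repair gene Spidr, had 4.38, 3.98 and 5.87 in WT and 3.35, 3.68 and 2.95 in DKO (−0.35 ± 0.27, SE, limma adjusted p = 0.606). The third, at −9929 bp, was named after its values were seen, as it had the largest change of the set. It had 7.88, 6.26 and 6.75 in WT, 5.03 and 4.53 in DKO replicates 1 and 2 and no summit in DKO replicate 3, the shallowest library. The change of −0.97 ± 0.42 (SE, limma adjusted p = 0.407) thus includes the lowest value of the list for DKO replicate 3. The strongest distal window of Cebpd, at the start of the neighbouring gene Mzt2, had 15.0, 12.5 and 16.8 in WT and 15.6, 13.7 and 13.0 in DKO and overlapped.

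At the late locus Cebpa, 2 of 21 windows were apart and higher in DKO (9.52%, close to the 8.76% of all windows), and 0 were apart and lower. One at −26888 bp, which also belongs to the Cebpg locus, had 4.3, 4.24 and 4.87 in WT and 4.69, 5.71 and 4.65 in DKO. Its groups overlapped as deposited and parted after normalization (0.34 ± 0.23, SE, limma adjusted p = 0.524, and 0.16 without scaling). The other, at 22552 bp, had a change of 0.41 ± 0.30 (SE, limma adjusted p = 0.578), or 0.245 without scaling. The strongest window away from the promoter, at 8009 bp, was higher than the promoter itself in WT replicates 1 and 3 and DKO replicate 2, with 13.7, 13.3 and 18.1 in WT and 13.2, 15.6 and 13.0 in DKO. It did not separate the genotypes (0.05 ± 0.11, SE, limma adjusted p = 0.9). At Cebpg the strongest distal window lay between Cebpg and Cebpa and overlapped as well (0.13 ± 0.16, SE, limma adjusted p = 0.776).

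The other loci held the lowest p of the family. A window at −49771 bp from Cebpz, at the edge of the locus in an intron of the protein kinase gene Prkd3, had 12.0, 7.97 and 11.4 in WT and 6.99, 6.24 and 4.92 in DKO. Every DKO library was lower than every WT library (−0.60 ± 0.17, SE, unadjusted p = 0.00498, limma adjusted p = 0.184). At Cebpe, the strongest window was at −24866 bp in an intron of the amino acid transporter gene Slc7a8. It had 24.0, 23.5 and 26.6 in WT and 19.5, 21.5 and 16.8 in DKO, again with separated groups (−0.25 ± 0.10, SE, limma adjusted p = 0.346). A weak Slc7a8 window at −44354 bp was listed in 3 WT (2.69, 3.06 and 3.04) and 0 DKO libraries. No window of the loci was listed in 3 DKO and 0 WT libraries, a pattern of 1.14% of all windows. Within Cebpz, the window at 411 bp had 4.24, 3.71 and 4.61 in WT and 4.89, 4.81 and 4.89 in DKO (0.38 ± 0.23, SE, limma adjusted p = 0.492, and 0.22 without scaling). The strongest distal window of that locus, at the start of Eif2ak2, overlapped (−0.02 ± 0.11, SE, limma adjusted p = 0.989).

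The 151 bases around the centre of the Prkd3 window, which had the lowest p of all windows at the loci, are printed on the plus strand. None of the 11 motifs occurs in this stretch, whereas the whole window holds 1 match each to the AP-1, STAT, glucocorticoid receptor and CTCF motifs.
Prkd3 intronic peak, chr17:78986762-78986912: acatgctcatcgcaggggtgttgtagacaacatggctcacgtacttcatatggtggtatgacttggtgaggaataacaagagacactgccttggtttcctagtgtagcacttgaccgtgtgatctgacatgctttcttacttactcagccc

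Sequence features of the 92 windows were compared with those of all windows, as a description. The median G and C content was 51.5% against 46.3%. The AP-1 letters occurred in 24 of 92 windows (26.1%) and in 36.6% of all windows, and the C/EBP letters in 21 (22.8%) and 24.0%. The CTCF consensus occurred in 13 windows (14.1%) and in 7.41% of all, and the glucocorticoid receptor letters in 20 (21.7%) and 15.8%. The window over the annotated UTR of Cebpa, at 2136 bp, held 3 matches to the C/EBP motif, and its values were 6.97, 6.67 and 7.03 in WT and 5.31, 6.45 and 5.25 in DKO. All DKO values were lower as deposited and overlapped after normalization (−0.10 ± 0.18, SE, limma adjusted p = 0.875).

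Promoters of genes that act around C/EBP were read from the same fit. All 15 inducers and early regulators had a promoter window, 10 of them in all 6 libraries, and 0 of 15 passed the test, with 3 changes below and 12 above 0 (median 0.20). Creb1 and Stat3, factors that act on the early C/EBP genes, had changes of 0.20 and 0.23, and Ebf1, an early adipogenic factor, −0.04. Of 12 partners and antagonists, 11 had a window and 0 passed (2 below and 9 above 0, median 0.12), among them Ddit3 (0.18), which inhibits C/EBP by dimerizing with it, and Trib1 (0.31), which promotes degradation of C/EBPα. Of 12 targets and late genes, 8 had a window and 0 passed (3 below and 5 above 0, median 0.11). The 1 window read for Pparg, the partner of Cebpa in the adipocyte program, had no listed summit in WT replicate 1 and values of 3.35 to 6.16 elsewhere. Its groups overlapped (0.36 ± 0.44, SE, limma adjusted p = 0.775). Fabp4, a fatty acid carrier, had 17.4, 15.9 and 17.4 in WT and 13.6, 14.2 and 12.9 in DKO and overlapped after normalization (−0.17, limma adjusted p = 0.489). Adipoq, Plin1, Lep and Cidec had no promoter window. The median of all windows was 0.01, and it was −0.14 without scaling. All windows include distal ones. No median over all promoters was taken, and these lists were read with scaling only.

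The profile of each adipogenic promoter over the 6 libraries was last compared with that of other promoters listed in all of them. For Cebpa, the highest Pearson r of normalized log2 fold enrichment belonged to Kdm1a (0.999), Slc7a6os and Prmt7 (0.997 each, a shared window), and 704 of 12298 promoters had an r over 0.9. For Cebpd these were Mapk7 (0.997) and the shared window of Ccdc18 and Tmed5 (0.996), with 251 over 0.9. For the strongest Cebpb window they were Poc5 (0.983), Gpsm2 (0.980) and 5031439G07Rik (0.978), with 39 over 0.9. The points are 6 libraries that share depth and scaling.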

How the data were processed

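ATAC-seq libraries of 3 WT and 3 DKO preadipocyte samples were grouped by their titles. Per the study's methods and the submitters' processing notes, the authors converted and trimmed reads (bcl2fastq 2.17, cutadapt 1.18), aligned them to mm10 with Bowtie2 2.3.4.3, removed duplicate and mitochondrial reads, and called peaks in each library with MACS2. The MACS2 version is not given in the sources used here, and the methods give default settings whereas the list names carry a p of 0.01. Each deposited list held 299433 to 299620 summits under a limit of 300000, so numbers of peaks cannot be compared. The deposited fold enrichment is a ratio of the pileup to the local background of the library, with the same constant added to both. The deposited p and q values are −log10 values and were not corrected for depth.

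Pileups and local backgrounds were recovered from fold enrichment and p under the Poisson model of MACS2, which gave whole numbers for 100% of summits (tolerance 0.05). Windows reaching 250 bp to each side were centred on summits, best ranked first, and kept if a summit passed a q of 0.01 in 2 or more libraries (chromosomes 1 to 19 and X). A window took the highest fold enrichment of its summits, or the lowest of the list where none was listed. Percentiles and ranges of listed values follow from these. Log2 values were quantile-normalized and compared with limma 3.58.1 in R 4.3.3 (lmFit, eBayes with trend, two-sided, Benjamini-Hochberg over all windows, threshold 0.05). In simulated data the fit called 112 of 200 windows changed by 2 log2 units and 2 of 200 changed by 1 unit, so changes of the size reported at these loci would mostly be missed. "Apart" or "overlap" refers to normalized values unless stated.

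A promoter window was centred within 1 kb of a GENCODE M21 start site. All members were named with their promoter windows. Other windows were named when called, when strongest in their locus beyond 1 kb, when listed in all libraries of 1 genotype only, or when among the 10 largest changes with separate groups in windows listed in all 6 libraries. The members and gene lists were chosen with earlier results of these data known. No interval ended beyond a GRCm38 chromosome, and sequences were read from RefSeq promoter entries and the GRCm38.p6 genome. Alternatives covered the scaling, the measure, the window set and width, missing values, the trend, the replicate number and each library in turn. The best summit without windows was added after seeing the data.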

Additional observations from a re-analysis of the deposited data

How the results depend on the processing

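The 33 results were recomputed to give 499 alternative values, of which 29 moved beyond the spread and 14 reversed. Some of the others could not differ, since the replicate block and the fit without trend leave each change as it is, and at most promoters the highest window was the nearest one. Under every alternative 0 windows of the loci were called lower and 0 higher. The lowest limma adjusted p at the loci ranged from 0.143 (windows listed in all 6 libraries) to 0.365 (no trend), and 4 to 15 windows had an unadjusted p under 0.05. The early minus late difference of 0.03 became 0.49 with summit pileup as the measure, −0.37 in windows listed in all 6 libraries, −0.358 with windows of 500 bp to each side, −0.36 with the highest window within 1 kb and −0.35 with the best summit, and it ranged from −0.10 to 0.22 when 1 library was left out. The Cebpb promoter change was likewise −0.19, −0.15 and −0.16 in windows listed in all 6 libraries, with the wider windows and with the highest window. Leaving out 1 library, the strongest Cebpb window ranged from −0.50 to 0.033, the Cebpa window at 8009 bp from −0.0098 to 0.098 and the Cebpz window at 54478 bp (Eif2ak2) from −0.086 to 0.065. Without scaling, the changes of the Cebpd promoter (−0.0016) and of the strongest distal windows of Cebpa (−0.10), Cebpb (−0.11), Cebpd (−0.066) and Cebpg (−0.055) turned negative, against a median of −0.14 over all windows, and with median centring the Eif2ak2 window was at 0.010. None of the reversed values passed the test in either direction, and the cause was not tested.

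The replicate numbers did not pair the libraries, as the correlations of same-numbered deviations were 0.0054, −0.011 and −0.0071. With the replicate block, 0 windows were called at the loci and 0 in the genome. The changes themselves (0.37 at the Cebpa promoter) are the same by construction in this balanced design. The lists end at a fixed number of peaks, and a summit can be unlisted although a stronger one is listed close by, so a missing summit at Cebpb or Cebpd is not a measurement of closed chromatin.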
